A study of Homo sapiens with 6 samples.

Results

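RGS proteins (regulators of G protein signaling) are the brakes of heterotrimeric G proteins. A G protein-coupled receptor loads the G alpha subunit with GTP, the subunit signals until it hydrolyses the GTP, and the RGS domain speeds that hydrolysis and so ends the signal. The family falls into subfamilies by sequence: the small R4 proteins (*RGS2*, *RGS3*, *RGS4*, *RGS5* and *RGS16* here) act on Gi and Gq, with *RGS2* known for its preference for Gq, the R12 proteins (*RGS10*, *RGS12* and *RGS14*) act on Gi, and the RZ proteins (*RGS19* and *RGS20*) act on Gi and Gz. Several R4 genes are known to be switched on quickly by the signals that their proteins then dampen.

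The 10 genes were taken by their symbols in the array's annotation. 9 of them had a named probe set, among 17687 genes named on the array, and each had 1 probe set; *RGS5* had no named probe set and was left out. *RGS2* was taken up because its signal differed between the groups on these same arrays, so its difference, and those of its relatives in the same comparison, are given as a description and not as a test. All 9 genes had a mean signal above a gauge of background of 4.65 on the log2 scale, below which 95% of 348 olfactory receptor genes had their mean signal. The other 12 genes with an RGS symbol and a probe set all lay below it, so the 9 are the RGS genes whose mean over the 6 arrays was above the gauge. For *RGS2* that mean includes the *circAAGAB* arrays, where it was high. On the empty vector arrays its mean was 4.68, with 1 of 3 arrays above the gauge. *RGS2* was the nearest inside at a mean of 5.07 and *RGS9* the nearest outside at 4.25.

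RNA came from the human cell line MDA-MB-231, a triple-negative breast cancer line with mesenchymal traits, 24 h after transfection with the pCIRC2T7-*circAAGAB* plasmid, which makes a circular RNA from exons of *AAGAB*, or with the empty vector. There were 3 Clariom S arrays with *circAAGAB* overexpression and 3 with the empty vector, with replicate numbers 1 to 3 in each group. Whether the 3 RNAs of a group were grown separately is not given in the labels, and the spread between arrays may therefore be technical only. The values are log2 signals after robust multichip averaging by the authors, and 1 unit is a doubling of signal. Differences are *circAAGAB* overexpression minus empty vector, with the standard error from limma fitted over all 21448 probe sets. In such bulk RNA, fewer cells that make an RNA and less of it per cell cannot be told apart.

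*AAGAB*, whose exons the plasmid carries, was at 10.97, 11.75 and 11.11 on the *circAAGAB* arrays and at 7.71, 7.56 and 7.73 on the empty vector arrays; its probe set cannot tell RNA of the plasmid from that of the host gene. Both arrays of replicate number 1 stood apart from the other 4 on the first principal component, so values without them are given where they matter. Of 10 markers of this cell line and of breast epithelium, 9 lay above the gauge, vimentin and *CD44* among them, and *SPARC* lay below it. The epithelial ones were *KRT8*, *KRT18*, *KRT19* and *EPCAM*. Of the 10, 3 had a positive and 7 a negative difference (median -0.05). Vimentin had 0.09, *EPCAM* 0.14, *KRT8* -0.07 and *KRT19* -0.14, and only *AXL* had groups without overlap. *AXL*, a receptor tyrosine kinase among these markers, was at 10.02, 10.01 and 9.97 with *circAAGAB*, against 10.43, 10.24 and 10.31 with the empty vector, without overlap (difference -0.33, standard error 0.14). Of 7 luminal breast markers, *ESR1*, *PGR* and *FOXA1* lay below the gauge. All 7 had a positive difference (median 0.21), where 49.6% of all probe sets had one. This shared sign depended on *circAAGAB* replicate 1. Without that array *ESR1* was at 4.32 and 4.64, against an empty vector mean of 4.63, and *FOXA1* at 4.45 and 4.24, against 4.45. Replicate number 1 gave the largest difference within a number in *FOXA1* (0.47), *GATA3* (0.54), *AGR2* (0.57) and *TFF1* (0.44), but not in *ESR1*, *PGR* or *XBP1*. Only *TFF1* of the 7 was higher within each replicate number. The luminal marker *TFF1* was at 7.01, 6.94 and 6.79 with *circAAGAB*, against 6.57, 6.54 and 6.47 with the empty vector, also without overlap (difference 0.38, standard error 0.14). Of all probe sets, 3.87% were higher and 4.04% lower without overlap. For the 7 luminal markers together, the summed linear signal was 553.2 to 674.1 on the *circAAGAB* arrays and 520.1 to 550.1 on the empty vector arrays. Such a sum mostly follows the gene of highest signal, here *XBP1* (mean 8.25), and the 2 ranges lay close. The groups of *XBP1* itself overlapped, with *circAAGAB* replicate 3 (8.095) below the lowest empty vector array (8.138). Of 9 blood cell markers, 4 lay above the gauge (*CD68*, *HBA1*, *CD14* and *LYZ*) and 5 below it, *PTPRC*, *CD3E* and *CD3D* among them. The summed signal of the 9 overlapped (670.6 to 823.2 with *circAAGAB*, 653.3 to 799.8 with the empty vector). Of 8 fibroblast and endothelial markers, 4 lay above the gauge (*COL1A1*, *COL1A2*, *VWF* and *CDH5*) and 4 below it. The summed signal of the 8 overlapped too (339.0 to 520.1 with *circAAGAB*, 382.4 to 447.7 with the empty vector). The part of these markers in the results below was not tested.

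The promoters of *RGS2*, *RGS4* and *RGS10* are shown first, because these are the 3 RGS genes whose groups did not overlap on the arrays. Each is the reference sequence (RefSeq, GRCh38.p14) from 250 bases before to 50 bases after a transcript start, 5′ to 3′ along the gene. Where a gene had several starts, the promoter with the most motif matches is printed. Capitals mark the matches found on either strand to the core of the cAMP response element (TGACG, which lies within the full element TGACGTCA), the GC box (GGGCGG) and the TATA box (TATAAA).
*RGS2*, chr1:192808789-192809088, plus strand: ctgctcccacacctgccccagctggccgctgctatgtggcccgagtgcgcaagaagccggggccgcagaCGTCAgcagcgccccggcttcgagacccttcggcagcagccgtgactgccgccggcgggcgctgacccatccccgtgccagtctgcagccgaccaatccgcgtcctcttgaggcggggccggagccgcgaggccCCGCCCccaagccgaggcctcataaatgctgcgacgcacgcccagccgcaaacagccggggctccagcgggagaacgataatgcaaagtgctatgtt
*RGS4*, chr1:163069111-163069410, plus strand: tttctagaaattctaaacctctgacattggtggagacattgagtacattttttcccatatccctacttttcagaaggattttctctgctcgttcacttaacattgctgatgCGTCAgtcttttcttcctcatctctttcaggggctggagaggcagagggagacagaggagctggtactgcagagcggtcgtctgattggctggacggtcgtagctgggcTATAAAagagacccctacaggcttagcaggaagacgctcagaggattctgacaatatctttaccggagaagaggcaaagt
*RGS10*, chr10:119542670-119542969, minus strand: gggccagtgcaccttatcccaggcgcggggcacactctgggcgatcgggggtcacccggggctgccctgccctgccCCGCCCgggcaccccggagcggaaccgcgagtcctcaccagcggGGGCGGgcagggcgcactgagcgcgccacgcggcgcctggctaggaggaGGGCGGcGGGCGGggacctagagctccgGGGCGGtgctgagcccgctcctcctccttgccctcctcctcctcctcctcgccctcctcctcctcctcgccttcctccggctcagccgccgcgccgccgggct

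The 3 promoters were unlike in composition, with 69.7% G and C in *RGS2*, 47.0% in *RGS4* and 77.3% in *RGS10*. The core of the cAMP response element stood once in the *RGS2* promoter, at position -181 from the start, and once in that of *RGS4*, at position -139. *RGS4* also had a TATA box at position -30, *RGS2* had a single GC box and *RGS10* had 5. Over 21 promoters of 8 of the genes (*RGS20* was not analysed here), 5 held the core (in *RGS2*, *RGS3*, *RGS4* and *RGS12*), against 24.6% of all 35116 promoters of this length. 2 of the 5 are overlapping promoters of *RGS4* that hold the same single site, which is thus counted 2 times. 10 held a GC box, against 45.0% of all promoters, and 2 a TATA box, against 11.5%. None held the full element (1.85% of all promoters), the AP-1 site TGAGTCA (4.95%) or the EGR site GCGTGGGCG (0.795%). Such matches describe letters in a window and not bound sites.

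*RGS2* was at 5.47, 5.51 and 5.39 on the *circAAGAB* arrays, against 4.61, 4.49 and 4.92 on the empty vector arrays. All 3 *circAAGAB* arrays lay above every empty vector array and close to each other, while on the empty vector arrays only replicate 3 lay above the gauge of background. The means were 5.46 ± 0.06 (SD, n = 3) with *circAAGAB* and 4.68 ± 0.22 (SD, n = 3) with the empty vector, a log2 difference of 0.78 (standard error 0.16) or 1.72-fold. Within replicate numbers 1, 2 and 3 the difference was 0.86, 1.01 and 0.47. It was 0.74 without both arrays of replicate number 1 and lay between 0.69 and 0.90 with any 1 array left out.

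**Figure D1:**
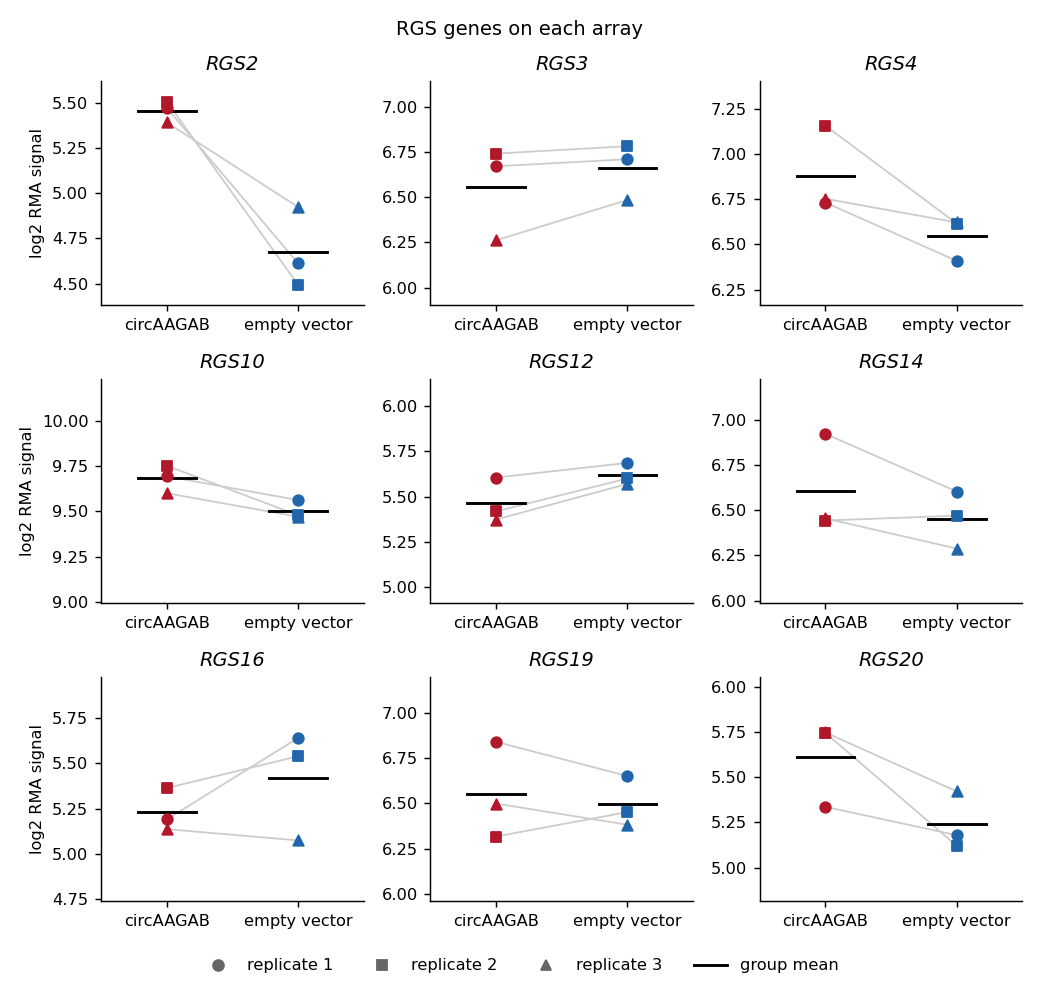
Each panel plots 1 RGS gene, with the log2 signal of every array on the y axis (the axes differ in position but each spans the same range), *circAAGAB* overexpression on the left and empty vector on the right. Symbols give the replicate number, grey lines join equal numbers and black bars are group means; *RGS2*, *RGS4* and *RGS10* are the genes whose groups do not overlap.

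*RGS4*, an R4 protein of broad use on Gi and Gq, was at 6.73, 7.16 and 6.75 with *circAAGAB*, against 6.41, 6.62 and 6.62 with the empty vector. The groups did not overlap, but replicate 2 of *circAAGAB* stood well above the others. The difference was 0.33 (standard error 0.17), and 0.19 without that array. *RGS16*, which is close to *RGS4* in the family and is known to be induced by several stimuli, was at 5.19, 5.36 and 5.14 with *circAAGAB*, against 5.64, 5.54 and 5.08 with the empty vector. Its groups overlapped, since the empty vector array of replicate 3 was the lowest of all 6. The difference was -0.19 (standard error 0.19). It was -0.06 without both arrays of replicate number 1, -0.08 without the empty vector array of replicate 1 and -0.36 without that of replicate 3. *RGS3*, the R4 gene with long as well as short products, was at 6.67, 6.74 and 6.26 with *circAAGAB*, against 6.71, 6.78 and 6.48 with the empty vector. Both arrays of replicate 3 were the lowest of their group, and the difference of -0.10 (standard error 0.18) became 0.05 without the *circAAGAB* array of that number. Within the R4 subfamily, *RGS2* and *RGS4* thus had positive and *RGS3* and *RGS16* negative differences; the contrast between these genes was not tested.

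*RGS10*, the smallest R12 protein and known for its role in microglia and other immune cells, was at 9.69, 9.75 and 9.60 with *circAAGAB*, against 9.56, 9.48 and 9.47 with the empty vector. The groups did not overlap, and the difference was small (0.18, standard error 0.14) beside a small spread within the groups (SD 0.08 with *circAAGAB* and 0.05 with the empty vector, n = 3 each). *RGS12*, a large scaffold that also binds Ras and carries a GoLoco motif, was at 5.60, 5.42 and 5.37 with *circAAGAB*, against 5.69, 5.60 and 5.57 with the empty vector. It was lower within each replicate number, but replicate 1 of *circAAGAB* reached the values of the empty vector arrays, and the difference was -0.15 (standard error 0.14). *RGS14*, built like *RGS12* with Ras-binding domains and a GoLoco motif, was at 6.92, 6.44 and 6.45 with *circAAGAB*, against 6.60, 6.47 and 6.29 with the empty vector. The groups overlapped, and the difference of 0.15 (standard error 0.18) was -0.0044 without the *circAAGAB* array of replicate 1.

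*RGS20*, also called RGSZ1 and known for its action on Gz, was at 5.34, 5.75 and 5.75 with *circAAGAB*, against 5.18, 5.12 and 5.42 with the empty vector. It was higher within each replicate number, with a difference of 0.37 (standard error 0.17), the largest after *RGS2* among the 9, but the groups overlapped at *circAAGAB* replicate 1 and empty vector replicate 3. *RGS19*, also called GAIP, was at 6.84, 6.32 and 6.50 with *circAAGAB*, against 6.65, 6.45 and 6.38 with the empty vector. Its groups overlapped throughout, and its difference of 0.06 (standard error 0.18) had the smallest size of the 9.

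**Figure D2:**
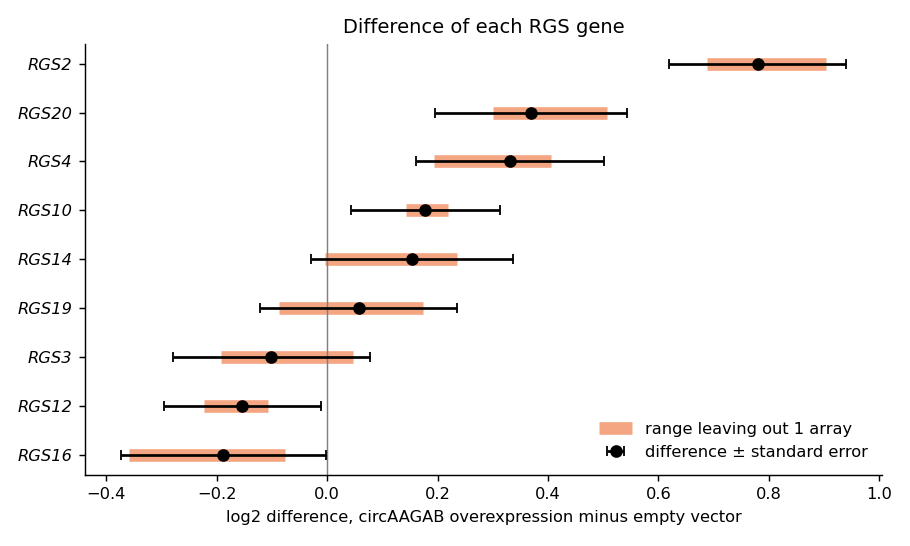
The x axis gives the log2 difference, *circAAGAB* overexpression minus empty vector, of each RGS gene on the y axis. Points are differences with limma's standard error as bars and the shaded band is the range with any 1 array left out; *RGS2* lies apart at 0.78, the next is *RGS20* at 0.37, and the bands of *RGS3*, *RGS14* and *RGS19* reach across 0.

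Of the 9 genes, 6 had a positive and 3 a negative difference, where 49.6% of all probe sets had a positive one. Their median was 0.15, and that of all probe sets was -0.0017. With *circAAGAB* replicate 1 left out the median of the 9 genes was -0.0044, and with any other array left out it was 0.07 to 0.22. No overlap between the groups was seen in 3 of the 9, all higher, where this held for 3.87% of all probe sets on the higher and 4.04% on the lower side, and for 3.82% and 4.41% of those above the gauge. At an adjusted p under 0.05 (limma, Benjamini-Hochberg over all probe sets) 0 of the 9 passed, where 0.00466% of the probe sets passed, that is *AAGAB* alone. An unadjusted p under 0.05 was met by *RGS2* alone of the 9, and by 2.18% of all probe sets (1.19% with a higher signal). With the replicate number as a block, *RGS2*, *RGS4* and *RGS20* met it, where 6.79% of all probe sets did (3.78% with a higher signal), and with the methods' test *RGS2* and *RGS10* met it, where 4.14% did. Neither passed any of the 9 after adjustment. Since *RGS2* was chosen on this comparison, nothing is read from these counts.

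The replicate number, a label that is balanced over the groups and was not used to choose the genes, was tested for each gene with limma's F test in a model with the group. 0 of the 9 genes passed at an adjusted p under 0.05, the smallest adjusted p being 0.217 in *RGS3*, and 0 met an unadjusted p under 0.05, where 25.7% of all probe sets did. As a description only, the genes differed in what their spread over the 6 arrays went with. In *RGS2* the group accounted for 89.7% and the replicate number for 2.6% of the sum of squares. In *RGS10* these shares were 73.7% and 15.7%. At the other end, the replicate number accounted for 86.6% in *RGS3*, 81.8% in *RGS19* and 72.2% in *RGS14*. *RGS14* and *RGS19* were highest on both arrays of replicate number 1, with means there 0.35 and 0.33 above those of numbers 2 and 3, whereas *RGS20* and *RGS4* were lower there, by differences of -0.25 and -0.22. The median share of the replicate number was 45.9% over the 9 genes and 60.4% over all probe sets. The median share of the group was 48.6% over the 9 genes and 8.31% over all probe sets. The shares are parts of the same sum of squares, so a high share of the group leaves less for the replicate number. Both comparisons of shares thus depend on the difference for which *RGS2* was chosen, and nothing is read from them.

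**Figure D3:**
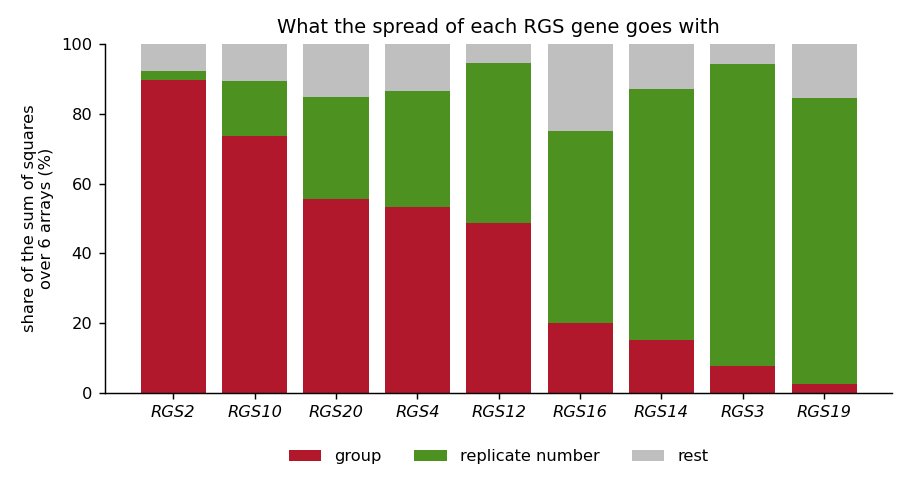
The y axis gives the share of each RGS gene's sum of squares over the 6 arrays, in percent, that went with the group, with the replicate number and with the rest, as stacked bars. The genes on the x axis are ordered by the share of the group, which was 89.7% in *RGS2* and 2.65% in *RGS19*.

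The 5 named genes above the gauge whose values over the 6 arrays were most like those of *RGS2* were *MAP3K7CL*, *SF3B6*, *PTGS2*, *PON3* and *TMEM60*, with Pearson's r of 0.996, 0.988, 0.986, 0.984 and 0.983 among 12450 candidates. This is a description over 6 arrays that share the difference between the groups, and 21 candidates had an r above 0.95. *PTGS2*, the inducible cyclooxygenase, was at 5.56, 5.57 and 5.63 with *circAAGAB*, against 4.98, 4.92 and 5.16 with the empty vector. *SF3B6*, a splicing factor subunit, followed the same order of arrays as *RGS2* but over a narrower range, with a difference of 0.22 against 0.78. Over the 4 arrays of replicate numbers 2 and 3 alone, these 5 genes ranked 11, 118, 182, 232 and 124 by their r with *RGS2*, so the choice of genes changed with the arrays used.

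**Figure D4:**
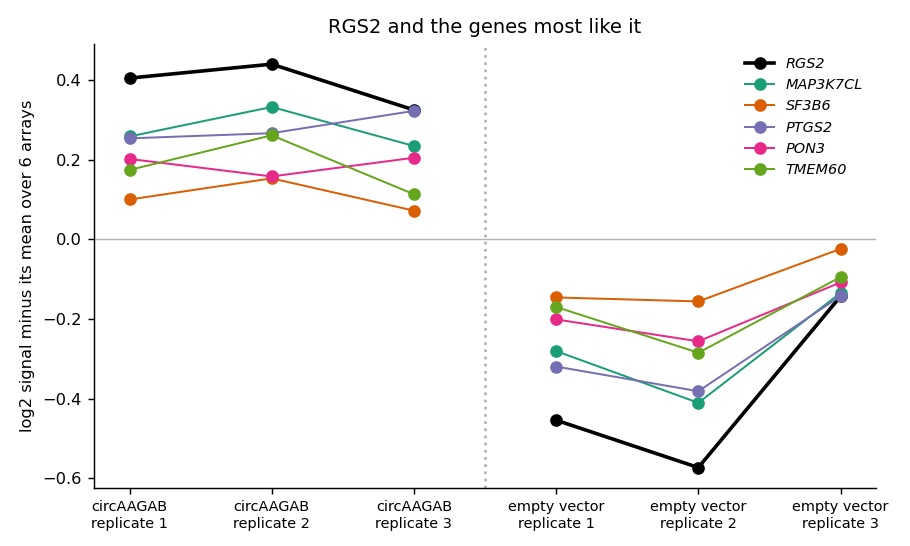
The y axis gives the log2 signal minus the gene's own mean over 6 arrays, for *RGS2* and the 5 genes most like it, on each array (x axis, *circAAGAB* overexpression left of the dotted line and empty vector right of it). All 6 genes lie above 0 on the 3 *circAAGAB* arrays and below 0 on the 3 empty vector arrays, with empty vector replicate 3 the highest of its group.

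The genes that work with RGS proteins were described by role, in 6 lists of 162 genes, of which 148 were measured. 0 of the 148 passed at an adjusted p under 0.05 (limma). An unadjusted p under 0.05 was met by 1 of them, where 2.18% of all probe sets met it, by 6 with the replicate block (6.79% of all probe sets) and by 6 with the methods' test (4.14%). The groups did not overlap in 2 genes on the higher and 9 on the lower side, where 3.87% and 4.04% of all probe sets did so. Of the receptors, 26 had a positive and 18 a negative difference (median 0.04). The gene with an unadjusted p under 0.05 was *HRH1*, the Gq-coupled histamine receptor, at 6.02, 5.82 and 6.03 with *circAAGAB*, against 6.25, 6.28 and 6.32 with the empty vector (difference -0.33, standard error 0.14, adjusted p = 1.00 from limma). Its groups did not overlap. It no longer met the threshold with the intensity trend, with *circAAGAB* replicate 2 or 3 left out, or with any 1 empty vector array left out, and other genes of the lists met it there.

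Of the 16 G alpha genes, 6 had a positive and 10 a negative difference (median -0.02). *GNA11* and *GNAQ*, Gq genes on which *RGS2* acts, were picked for that role and not by the rule for named genes, after their values were seen. *GNA11* was at 8.04, 7.98 and 8.17 with *circAAGAB*, against 7.99, 8.18 and 7.99 with the empty vector. *GNAQ* was at 6.76, 7.53 and 7.63 with *circAAGAB*, against 7.03, 7.71 and 7.81 with the empty vector, and both its arrays of replicate number 1 were low. The groups overlapped in both genes, though *GNAQ* was lower with *circAAGAB* within each replicate number (-0.27, -0.18 and -0.18). The Gq class also holds *GNA14* and *GNA15*, added here after their values were seen. *GNA14*, below the gauge, had a difference of -0.38 (standard error 0.17) and was lower within each replicate number. *GNA15* had one of 0.02 (standard error 0.23), and the groups overlapped in *GNA14* and *GNA15* too. *GNAT1*, the transducin of rod cells, was lower without overlap (difference -0.27). Of the 17 G beta and gamma genes, 8 had a positive and 9 a negative difference (median -0.0017). The groups did not overlap in *GNG5* and *GNG10*, with differences of 0.26 and 0.20, and in *GNB1*, at -0.14.

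Of the 30 effectors, 10 had a positive and 20 a negative difference (median -0.06), and for 5 of them the groups did not overlap, all lower with *circAAGAB*, beside the 4.04% of all probe sets that were so (4.41% above the gauge). These were the adenylyl cyclases *ADCY5* and *ADCY9*, the phospholipase *PLCB4* (below the gauge), the phosphodiesterase *PDE4A* and *PRKACA*, a catalytic subunit of protein kinase A. Their differences were -0.29, -0.25, -0.42, -0.26 and -0.21. *PRKACB*, another catalytic subunit, went the other way (difference 0.27, standard error 0.34), higher within each replicate number but with overlapping groups. It was added after its values were seen. Apart from *HRH1*, the genes of the lists without overlap were named after their values were seen. In *PDE4A* the groups all but touched, at 7.30 in both. None of the 5 effectors passed the adjusted test (limma). The 26 other genes with an RGS box, which include the G protein-coupled receptor kinases and the axins, had differences of -0.48 to 0.48 (median 0.02). Among them the groups did not overlap in *ARHGEF1*, which was lower with *circAAGAB* (difference -0.23, standard error 0.14). The 15 partners and turnover factors of RGS and G alpha proteins had a median of -0.07.

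**Figure D5:**
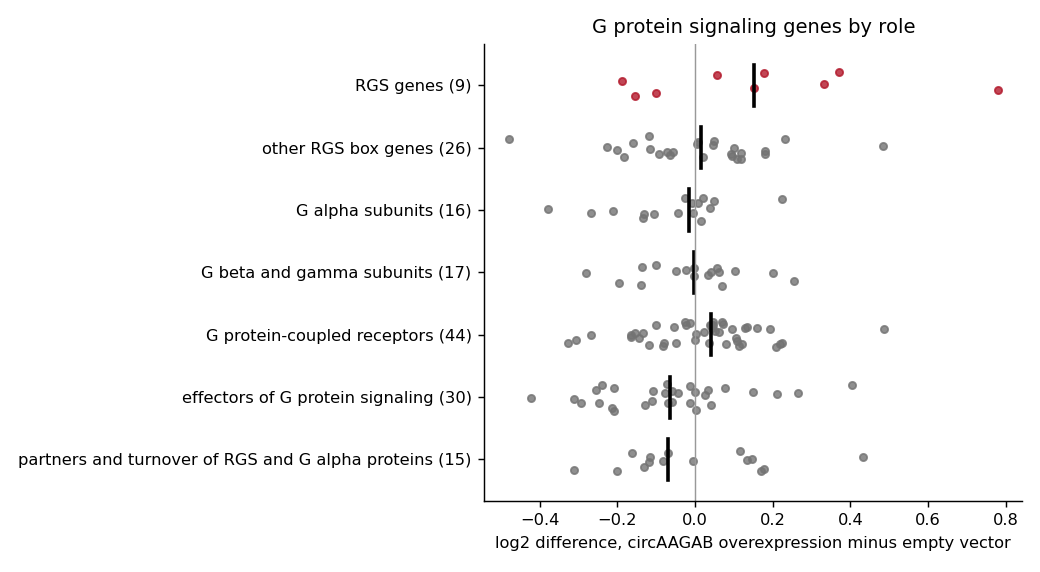
Each point is the log2 difference, *circAAGAB* overexpression minus empty vector (x axis), of 1 gene, and rows group the genes by role, with the number measured in brackets and the median as a black bar. The median of the RGS genes is 0.15 (-0.0044 without *circAAGAB* replicate 1), their rightmost point is *RGS2*, which was chosen on this comparison, and the medians of the other rows lie between -0.07 and 0.04.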

How the data were processed

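Total RNA of MDA-MB-231 cells was made into labelled cDNA (WT Plus cDNA Synthesis and WT Terminal Labeling kits) and hybridised to 6 Clariom S arrays. The log2 values, 1 per probe set and array, were used as the authors deposited them, after RMA (robust multichip averaging, named in the methods and the submitters' processing notes). The deposited arrays were alike but not equal in distribution, with medians of 5.70 to 5.80 and SDs of 2.08 to 2.21, and a global shift between the groups could be hidden by RMA. The software version is not given in the sources used here. Arrays give no read depth, and their number limits the precision. Gene symbols came from the platform annotation and the gene table of GRCh38.p14: 17709 of 21448 had 1 symbol, and 3739 were unnamed here. For a gene with several probe sets the one of highest mean was used.

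Differences were fitted in R 4.3.3 with limma 3.58.1 (lmFit, then eBayes, two-sided, without covariates), and p-values were adjusted by Benjamini-Hochberg over the whole table. The methods' test is the unpaired Student's test that the study names for its experiments, run on each probe set. The replicate number was tested with limma's F test. Deviations from the group means correlated between arrays of equal number (0.603, 0.189 and 0.549 for numbers 1, 2 and 3). By a preset minimum of 0.1 in every pair, the numbers were used as a block, as an alternative. Correlations between unequal numbers were not compared with these, and both arrays of number 1 stood apart. That the numbers pair the arrays is therefore not shown. Other alternatives were quantile normalization, median centring, an intensity trend, probe sets above the gauge only, and left-out arrays. The named genes were the RGS genes, per list up to 3 genes of smallest p under 0.05, the 5 genes most like RGS2 above the gauge, and AAGAB. Members and lists were chosen with earlier results of these data known. Scripts were tested on simulated data.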

Additional observations from a re-analysis of the deposited data

How the results depend on the processing

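The log2 difference of *RGS2* stayed between 0.69 and 0.90 under all alternatives, and 0 of the 9 RGS genes passed at an adjusted p under 0.05 in any of them. The number of RGS genes with a positive difference was 6, except 5 without both arrays of replicate number 1 and 4 to 7 with any 1 array left out. *RGS3*, *RGS14* and *RGS19* changed sign with an array left out, *RGS3* to 0.05 without *circAAGAB* replicate 3, *RGS14* to -0.0044 and *RGS19* to -0.09 without *circAAGAB* replicate 1, and *RGS19* to -0.0085 without both arrays of replicate number 1. No scaling turned a sign.

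At an unadjusted p under 0.05, the replicate block gave 3 RGS genes, 6 genes of the pathway lists and 1457 probe sets, against 1, 1 and 468 without it, and it changed no adjusted call. The methods' test gave 2 RGS genes, 6 genes of the lists and 888 probe sets, and 0 probe sets passed after adjustment, where limma passed 1. Without both arrays of replicate number 1 these counts were 2, 5 and 1655. With any 1 array left out they were 1 to 3, 1 to 6 and 240 to 1768. For the replicate number, quantile normalization gave 1 RGS gene (*RGS3*) at an unadjusted p under 0.05, as did the fit over probe sets above the gauge, where 1903 probe sets passed after adjustment; median centring passed 510, and 0 passed as deposited. No RGS gene had more than 1 probe set, so averaging probe sets was not run. Signal over background limits *RGS2*, since 1 of its 3 empty vector arrays lay above the gauge.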

Other observations

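*RGS2* ends a row of RGS genes on chromosome 1. In the gene table of GRCh38.p14 the 4 protein-coding genes before it are *RGS18*, *RGS21*, *RGS1* and *RGS13*, all of the R4 subfamily. All 4 lay below the gauge of background here. *RGS1*, a gene of activated lymphocytes, was at 1.47, 1.73 and 1.39 with *circAAGAB*, against 1.58, 1.33 and 1.54 with the empty vector. *RGS13* was at 3.13, 2.15 and 2.07 with *circAAGAB*, against 3.10, 1.95 and 2.02 with the empty vector, high on both arrays of replicate number 1. The differences of these 4 neighbours were 0.12, 0.01, 0.05 and 0.09 in the order of the row, and that of *RGS2* was 0.78. The neighbour of *RGS4* in the table is *RGS5* and that of *RGS16* is *RGS8*. *RGS8* lay below the gauge, at 2.89, 2.55 and 3.23 with *circAAGAB* and 2.93, 3.01 and 3.00 with the empty vector. Among the 12 RGS genes below the gauge, *RGS17*, of the RZ subfamily with *RGS19* and *RGS20*, had the highest difference at 0.48 (standard error 0.28) and *RGS6*, of the R7 subfamily, the lowest at -0.48 (standard error 0.25). In both genes the groups overlapped, but *RGS17* was higher within each replicate number (0.82, 0.51 and 0.13), with an unadjusted limma p of 0.0215 with the replicate block, against 0.115 without it, and *RGS6* was lower within each (-0.99, -0.01 and -0.44). These genes were picked for their place on the chromosome or their values after the values were seen.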
